A study of Mus musculus with 12 samples.

Results

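Naive 3, 4 and 5 are 3 of the 6 RNA-seq libraries made from all GFP-positive cells of the mouse uterus, and they were set against the other 3 libraries of that sort, Naive 1, 2 and 6. They were selected on measured values: on the first principal component of log2 CPM (counts scaled to a common library size) over all 12 libraries of the series, which held 34% of the variance, Naive 3, 4 and 5 scored 101.6, 107.0 and 102.2. Naive 1, 2 and 6 scored -3.82, -1.50 and 6.66, and the 6 Stromal libraries scored from -64.6 to -31.1. Because every gene contributed to that axis, the contrast between the libraries is a description here, and no test was made on it. All 12 libraries came from uteri of female Pdgfrb-BAC-eGFP mice, in which a bacterial artificial chromosome with Pdgfrb regulatory sequence drives green fluorescent protein (GFP) in mesenchymal cells. The tissue was healthy and no treatment is named, and nothing in the labels separates Naive 3, 4 and 5 from Naive 1, 2 and 6. Naive libraries hold GFP-high perivascular cells together with GFP-low stromal fibroblasts, and Stromal libraries (6) hold the GFP-low cells only. The count file of Stromal 6 names an alignment with the N prefix of the Naive libraries, under a number that no sample here carries. Rgs5, a pericyte gene, stood at 10.9 CPM in Stromal 6, at 0.901 to 7.69 CPM in the other Stromal libraries and at 592 to 931 CPM in the Naive libraries, and results whose Stromal range it sets are given with and without it. The series describes 12 cycling mice. No source used here gives age, cycle stage or the animal behind each library, so a property of the mouse, the day of sorting and the library cannot be told apart.

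The uterine stroma is remodelled in each oestrous cycle as ovarian oestrogen and progesterone rise and fall, acting through the nuclear receptors Esr1 and Pgr. Interferons signal through Jak kinases to factors of the Stat family, which join Irf9 to bind the interferon-stimulated response element, or bind gamma-activated sites without it. Their targets include the Ifit, Oas, Mx and guanylate-binding protein families, which act against viruses and other intracellular microbes.

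A gene was counted as higher in Naive 3, 4 and 5 where the lowest of these libraries lay at least 2-fold above the highest of Naive 1, 2 and 6, and as lower where the reverse held. The distance between these nearest libraries on the log2 CPM scale is called the gap. The difference is the middle library of Naive 3, 4 and 5 minus the middle library of Naive 1, 2 and 6, also in log2 CPM. Of 14523 genes kept by a filter on low counts, 492 were higher (3.39%) and 478 were lower (3.29%). The near-even counts depend on that filter, which used the 2 labelled groups: without it 808 genes were higher and 579 lower. A filter of at least 10 counts in 3 Naive libraries gave 663 and 488. A further measure, 3 libraries lying wholly above or wholly below the other 3, held for 2420 genes above (16.7%) and 2281 below (15.7%). These shares over all genes are the background for each count of list members that follows. The median difference was 2.26 over the 492 higher genes and -2.39 over the 478 lower genes, against 0.04 over all genes. For 340 of the higher and 376 of the lower genes the gap was wider than the whole spread among either set of 3 libraries. Just inside the 2-fold limit lay Snapc5 with a gap of 1.00 and Eng with -1.004, and just outside lay Pla2g16 and Bmp2k, with 0.997 and -0.997. Scaling to total library size in place of the trimmed mean of M values (TMM) gave 885 higher and 290 lower genes, so that 75.3% in place of 50.7% of them were higher, and it moved the median difference of all genes from 0.04 to 0.44. Leaving out any 1 Naive library raised both counts, to 674 to 835 higher and 574 to 702 lower genes. At the same scaling, fewer libraries to separate can only keep or widen a gap.

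Interferon targets stood high in Naive 3, 4 and 5: 18 of the 27 interferon-stimulated genes that passed the filter were higher and none was lower, and 24 lay wholly above Naive 1, 2 and 6. Over all genes 3.39% were higher and 16.7% lay wholly above. The list has 32 genes in all. Proximal promoters are shown because most of those on the list carry letters that the interferon-activated factors read. In a RefSeq table (GRCm38.p6), 23 of the 32 genes had an entry, with 24 promoters that reach from 250 bases before to 50 after the transcription start. The letters GAAANNGAA, part of the interferon-stimulated response element, stood on either strand in 16 of these 24 promoters (66.7%), against 8.56% of all 32851 promoters of the same length. They stood in 15.4% of the 423 promoters matched to higher genes and in 9.04% of the 354 matched to lower genes. The letters TTCNNNGAA, a gamma-activated site, stood in 20.8% of the promoters on the list and in 8.30% of all promoters, but in 7.57% of those matched to higher genes and 4.52% of those matched to lower genes. Matches to both motifs can overlap, and each is a match of letters, not a measured binding site. The share for a list follows from its members alone, not from the values of these libraries. The stretches below run from 160 bases before to 10 after the start, 5′ to 3′ along the gene, with matches to GAAANNGAA or its reverse complement in capitals. Gbp2 and Gbp7 belong to the list with class II presentation, where 7 of 16 promoters (43.8%) held a match.
Ifit1: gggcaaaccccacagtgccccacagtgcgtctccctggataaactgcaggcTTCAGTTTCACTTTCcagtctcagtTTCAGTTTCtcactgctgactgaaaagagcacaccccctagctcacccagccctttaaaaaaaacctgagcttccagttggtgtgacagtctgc
Ifit3: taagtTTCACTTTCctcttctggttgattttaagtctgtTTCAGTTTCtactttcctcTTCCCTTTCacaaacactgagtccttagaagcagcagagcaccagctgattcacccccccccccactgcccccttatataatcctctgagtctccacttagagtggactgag
Rsad2: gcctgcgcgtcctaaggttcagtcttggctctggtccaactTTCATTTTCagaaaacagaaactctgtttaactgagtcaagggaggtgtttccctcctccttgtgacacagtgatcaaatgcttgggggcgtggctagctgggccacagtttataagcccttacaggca
Ifi44: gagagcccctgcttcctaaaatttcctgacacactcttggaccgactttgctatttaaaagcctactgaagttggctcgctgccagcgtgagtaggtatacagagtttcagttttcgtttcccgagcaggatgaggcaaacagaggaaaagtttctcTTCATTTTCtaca
Oas1a: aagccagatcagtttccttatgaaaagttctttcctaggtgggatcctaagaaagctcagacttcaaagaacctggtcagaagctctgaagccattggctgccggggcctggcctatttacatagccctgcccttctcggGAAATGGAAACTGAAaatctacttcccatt
Gbp2: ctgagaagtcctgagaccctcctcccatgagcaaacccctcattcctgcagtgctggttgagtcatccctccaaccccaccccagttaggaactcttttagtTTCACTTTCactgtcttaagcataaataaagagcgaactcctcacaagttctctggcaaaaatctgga
Gbp7: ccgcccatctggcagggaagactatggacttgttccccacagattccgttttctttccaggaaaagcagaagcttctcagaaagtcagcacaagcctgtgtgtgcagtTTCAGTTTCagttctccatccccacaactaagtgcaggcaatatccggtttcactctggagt

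These stretches lie at chr19:34640729-34640898 (plus strand), chr19:34583369-34583538 (plus strand), chr12:26456443-26456612 (minus strand), chr3:151749901-151750070 (minus strand), chr5:120907516-120907685 (minus strand), chr3:142620503-142620672 (plus strand) and chr3:142530176-142530345 (plus strand), in that order. Ifit1 and Ifit3, neighbours on chromosome 19, each carried 3 matches. Those of Ifit1 began 109, 103 and 84 bases before the start, the first pair overlapping, and those of Ifit3 began 155, 121 and 102 bases before it. Rsad2 and Ifi44 carried 1 match each, beginning 119 and 3 bases before the start, so that the match of Ifi44 runs across it. Each stretch shown holds a match. The promoters of Ifit2, Oasl2, Xaf1, Cmpk2 and Dtx3l, all higher in Naive 3, 4 and 5, held no match to GAAANNGAA in the 300-base window. Membership of the list therefore did not require one.

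Of the 4 interferon ligands on the list 1, Ifnk, passed the filter. Ifnb1 had 0 counts in all 6 Naive libraries, and a count of 0 allows up to 0.184 to 0.266 CPM in these libraries from counting error alone. Ifne reached 0.464 CPM in Naive 5 and Ifng 0.265 CPM in the same library, with 0 counts in Naive 3 and 4. Ifnk, a type I interferon of epithelia, was the ligand with values in all 6: 11.3, 9.12 and 5.95 CPM in Naive 1, 2 and 6 and 2.57, 4.83 and 2.12 CPM in Naive 3, 4 and 5. All 3 values of Naive 3, 4 and 5 lay below the other 3, with a gap of -0.29.

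No receptor gene on the list was 2-fold apart. Ifnar1, a subunit of the type I receptor, stood at 25.4, 30.4 and 21.8 CPM in Naive 1, 2 and 6 and at 30.1, 44.5 and 24.7 CPM in Naive 3, 4 and 5, and the libraries overlapped. Stat2, a transducer of type I signals, stood at 67.5, 55.4 and 82.6 CPM against 168, 227 and 197 CPM, with a gap of 1.02. Irf7, the factor that amplifies type I interferon responses, stood at 2.08, 1.37 and 2.04 CPM against 5.70, 7.59 and 4.84 CPM, with a gap of 1.17. They were among the 3 members of the list of ligands, receptors and transducers counted as higher, out of 15 that passed the filter. None was lower, and the shares over all genes were 3.39% higher and 3.29% lower. Irf9, which binds DNA together with Stat2, had 15.9, 18.9 and 19.98 CPM against 39.6, 68.6 and 33.9 CPM, wholly above but with a gap of 0.76.

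Among the targets, Ifit1, which binds viral RNA lacking the host cap mark, stood at 26.2, 33.3 and 41.2 CPM in Naive 1, 2 and 6 and at 298 (Naive 3), 269 (Naive 4) and 276 (Naive 5) CPM. Ifit3, its partner, stood at 1.16, 3.07 and 8.79 CPM against 121, 83.2 and 122 CPM, a gap of 3.22. Rsad2, which makes a chain-terminating nucleotide, stood at 0.154, 0.323 and 4.08 CPM against 38.9, 48.1 and 41.2 CPM, a gap of 3.21. The low side was not uniform: Naive 6 was the highest of the low libraries for each of these genes. Ifi44 stood at 21.3, 10.1 and 11.9 CPM against 339, 328 and 251 CPM, and there Naive 1 was the highest of its 3. Oas2, one of the synthetases that activate RNase L, stood at 27.8, 19.9 and 57.7 CPM against 225, 282 and 153 CPM. Dhx58, a cytoplasmic RNA sensor, stood at 1.23, 0.969 and 1.24 CPM against 15.5, 12.4 and 12.7 CPM. Every library of Naive 3, 4 and 5 was higher than every other Naive library for these genes. Members below the 2-fold limit included Eif2ak2, the kinase PKR, at 93.6, 94.6 and 117 CPM against 215, 206 and 167 CPM, and Bst2, which tethers virions, at 17.6, 17.5 and 24.3 CPM against 18.7, 38.2 and 22.9 CPM, which overlapped. Isg15, Ifit3b, Oas3, Oasl1 and Ifi44l did not pass the filter, and of these Isg15 had 7 counts in Naive 1, 2 and 6 together and 122 in Naive 3, 4 and 5.

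**Figure D1:**
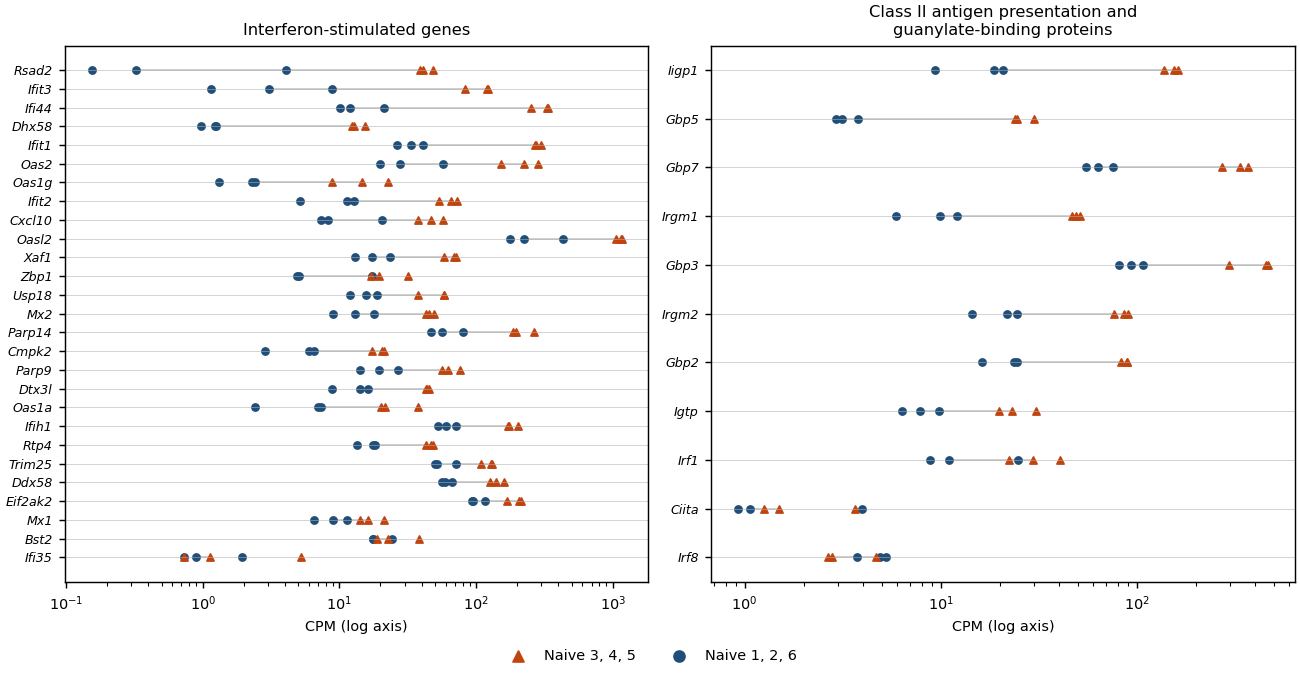
CPM on a log axis of each list member that passed the low-count filter, with circles for Naive 1, 2 and 6, triangles for Naive 3, 4 and 5, and a grey line between the 2 medians. The triangles lie wholly to the right for 24 of 27 interferon-stimulated genes and 8 of 11 members of the other list.

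Summed over the list, interferon-stimulated genes took 760 CPM in Naive 1, 717 CPM in Naive 2 and 1177 CPM in Naive 6, against 3590.0, 3755 and 3302 CPM in Naive 3, 4 and 5. The Stromal libraries took from 345 to 613 CPM. Naive 3, 4 and 5 were therefore the highest of all 12 libraries, and Naive 1, 2 and 6 also lay above the Stromal range. Ifit3 was at most 1.95 CPM and Ifi44 at most 13.1 CPM in any Stromal library.

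A list of 16 genes joined class II antigen presentation to guanylate-binding proteins and immunity-related GTPases, which attack the vacuoles of intracellular microbes. Of its 11 filtered members 8 were higher and none was lower, against 3.39% and 3.29% of all genes. All 8 came from these GTPase families. Iigp1 stood at 9.33, 18.8 and 20.8 CPM in Naive 1, 2 and 6 and at 156, 137 and 163 CPM in Naive 3, 4 and 5. Gbp7 stood at 63.8, 55.1 and 75.4 CPM against 369, 337 and 273 CPM, and Gbp5 at 3.78, 3.15 and 2.93 CPM against 30.0, 24.0 and 24.5 CPM. Gbp7 shares 11.3% of its exonic bases with Gm43802 on the same strand. The class II genes themselves were near 0 throughout: Cd74, the invariant chain, had 7 counts in Naive 1, 2 and 6 together and 2 in Naive 3, 4 and 5, and H2-Ab1 had 2 and 0. Ciita, the class II master regulator, overlapped at 0.925, 3.96 and 1.07 CPM against 1.496, 3.67 and 1.26 CPM. In class I presentation, 8 of 12 filtered members lay wholly above, against 16.7% of all genes. Of these 1, H2-T23, passed the 2-fold limit, at 3.47, 4.76 and 5.77 CPM against 20.7, 20.1 and 21.6 CPM. B2m, the class I light chain, stood at 715, 688 and 658 CPM against 1529, 1269 and 1717 CPM, a gap of 0.83.

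Complement genes followed the same side. C3, the central component, stood at 29.5, 41.2 and 30.2 CPM in Naive 1, 2 and 6 and at 158, 188 and 158 CPM in Naive 3, 4 and 5. C4b stood at 2.47, 2.18 and 4.35 CPM against 20.2, 19.0 and 26.7 CPM. C2 was also counted as higher, at 0.771, 0.807 and 0.0888 CPM against 3.35, 4.83 and 7.03 CPM, and it shares 46.9% of its exonic bases with Gm20547 on the same strand. Of 8 filtered members 7 lay wholly above, against 16.7% of all genes. The exception was Cd55, an inhibitor of complement on the cell surface, which was lower at 555, 551 and 561 CPM against 242, 180 and 255 CPM.

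The widest gaps in each direction among well-counted named genes are shown beside the Stromal libraries. Penk, the precursor of enkephalin peptides, had the widest gap of those higher, 6.00, with 0.771, 1.61 and 0.533 CPM in Naive 1, 2 and 6 and 121, 142 and 112 CPM in Naive 3, 4 and 5. It shares 14.3% of its exonic bases with A830012C17Rik on the opposite strand, which unstranded counting does not separate. Pamr1 stood at 4.86, 1.70 and 9.59 CPM against 209, 240.1 and 429 CPM. Gpnmb, a transmembrane glycoprotein, stood at 4.32, 0.404 and 0.977 CPM against 75.9, 70.2 and 128 CPM. In none of these 3 genes did a Stromal library exceed 29.6 CPM. Steap4, a metalloreductase on the pericyte list, stood at 2.78, 7.91 and 5.77 CPM against 412, 348 and 117 CPM, with Naive 5 well below the other 2. The GFP-low Stromal libraries held 2.06 to 18.4 CPM of Steap4, a range around the values of Naive 1, 2 and 6. Without Stromal 6 they held 3.59 to 18.4 CPM, and Naive 1 lay below that range. Scara5, a ferritin receptor of fibroblasts, stood at 27.1, 29.3 and 24.3 CPM against 259, 233 and 233 CPM.

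On the other side, Fgfr2, a receptor of fibroblast growth factors, had the widest gap, -4.62, with 151, 169 and 148 CPM in Naive 1, 2 and 6 and 3.92, 2.94 and 5.90 CPM in Naive 3, 4 and 5. Adcy1, an adenylyl cyclase, stood at 127, 113 and 132 CPM against 5.91, 5.69 and 4.78 CPM. Slco2a1, the prostaglandin transporter, stood at 244, 159 and 270.4 CPM against 8.48, 7.34 and 7.69 CPM. For these 3 genes the lowest Stromal library had 23.1, 127 and 82.0 CPM, above every value of Naive 3, 4 and 5. Lgr6, a receptor for R-spondins, stood at 166, 185 and 189 CPM against 12.8, 18.8 and 7.69 CPM. Atp8a1, a phospholipid flippase, stood at 1751, 1855 and 1560.0 CPM against 126, 91.5 and 85.9 CPM. Predicted genes lying inside it were lower as well: 6 of them, with the same holding for 9 inside Adgrb3.

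**Figure D2:**
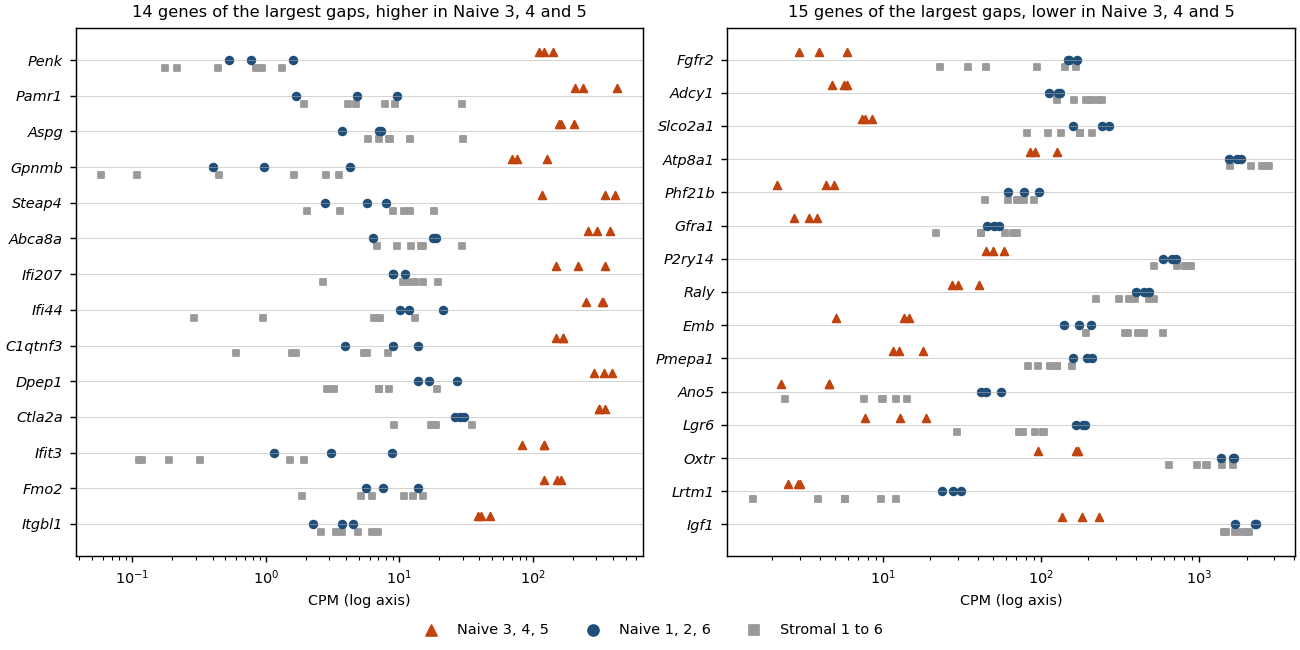
CPM on a log axis for 14 higher and 15 lower genes of the widest gaps, with 1 mark per library: triangles for Naive 3, 4 and 5, circles for Naive 1, 2 and 6, squares for the 6 Stromal libraries. Triangles and circles do not overlap in any row, which the choice of genes fixes, and for Penk the triangles stand at 112 to 142 CPM against at most 1.61 CPM in every other library.

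Genes known to respond to oestrogen in the uterus did not lie on one side. Of 14 filtered members of that list, 4 were lower and 3 higher, against 3.29% and 3.39% of all genes. Its median difference was -0.61. Pgr, which oestrogen induces in stroma, stood at 1462, 1624 and 1485 CPM in Naive 1, 2 and 6 and at 499, 409 and 399 CPM in Naive 3, 4 and 5. Igf1, the stromal growth factor that acts on the epithelium, stood at 2261, 2289 and 1680.0 CPM against 232, 182 and 137 CPM, a gap of -2.85. Mad2l1, a spindle checkpoint protein, stood at 90.0, 108 and 83.5 CPM against 18.6, 7.71 and 9.95 CPM. Vegfa, the endothelial growth factor, stood at 140, 172 and 148 CPM against 46.8, 54.4 and 58.0 CPM, and its gap of -1.27 fell inside the 2-fold limit under scaling to total library size. The 3 higher members were C3, Ltf and Sprr2f, which in the uterus are mostly products of the epithelium. Ltf, lactoferrin, stood at 1.70, 1.53 and 0.266 CPM against 7.62, 31.6 and 8.36 CPM, and Naive 4 was far above Naive 3 and 5. Greb1 was wholly lower without reaching the 2-fold limit, at 125, 104 and 127 CPM against 61.6, 50.6 and 28.5 CPM.

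The receptors themselves, other than Pgr, were less far apart. Esr1 stood at 410 (Naive 1), 449 (Naive 2) and 359 (Naive 6) CPM and at 201, 209 and 338 CPM in Naive 3, 4 and 5, so that Naive 5 lay close to Naive 6. Esr2 had 2 and 4 counts in the 2 sets. Nr2f2, a stromal orphan receptor, was wholly above at 110 (Naive 1), 112 and 142 CPM against 179, 228 and 258 CPM, with a gap of 0.33. Of 13 filtered genes that respond to progesterone or glucocorticoids none was counted as higher or lower, against shares of 3.39% and 3.29% over all genes. Zbtb16, often used as a decidual marker, set Naive 5 apart from its partners: 21.5 and 40.0 CPM in Naive 3 and 4 but 1.13 CPM in Naive 5, against 1.16, 4.44 and 0.621 CPM in Naive 1, 2 and 6. Fkbp5, a co-chaperone of these receptors, did not pass the filter and had 5 counts in Naive 1, 2 and 6 together against 269 in Naive 3, 4 and 5. Of 11 filtered decidualization genes 6 lay wholly below and 1 wholly above, against 15.7% and 16.7% of all genes. Their median difference was -0.73, with 1 higher and 1 lower. The higher one was Scara5, described above, with a gap of 2.99. The lower one, Il11, the cytokine required for decidual growth, had 62 counts in Naive 1, 2 and 6 against 1 in Naive 3, 4 and 5.

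Oxtr, the oxytocin receptor, stood at 1670, 1651 and 1387 CPM in Naive 1, 2 and 6 and at 170, 166 and 95.6 CPM in Naive 3, 4 and 5, a gap of -3.02. The Stromal libraries ran from 646 to 1638 CPM, or to 1390.0 CPM without Stromal 6, so Naive 3, 4 and 5 lay below the GFP-low cells. Trpc6, a calcium-permeable channel also on the pericyte list, was lower too, at 201, 202 and 214 CPM against 29.3, 19.5 and 27.9 CPM. Ryr2, the calcium release channel, was also lower, at 57.3, 68.8 and 70.0 CPM against 23.2, 24.0 and 16.2 CPM. Agtr1a, the angiotensin receptor, was higher at 0.848, 3.79 and 3.82 CPM against 9.19, 10.1 and 17.6 CPM. Pde5a, which breaks down cyclic GMP, was higher at 56.9, 67.5 and 55.5 CPM against 252, 232 and 163 CPM. Of the 16 filtered ion channel and contractile receptor genes 2 were higher and 3 lower, against 3.39% and 3.29% of all genes. The remaining 11 were not 2-fold apart. Ptgfr, the receptor of prostaglandin F, had 0.540, 0 and 0 CPM against 18.9, 3.73 and 6.57 CPM, at low counts.

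Of 20 fibrillar matrix genes, which all passed the filter, 2 were lower, Eln and Fbn2, and none was higher. In all 11 lay wholly below, 1 wholly above and 8 overlapped, with a median difference of -0.87. Over all genes 15.7% lay wholly below and 16.7% wholly above. Eln, elastin, stood at 249, 212 and 232 CPM in Naive 1, 2 and 6 and at 29.0, 34.5 and 28.6 CPM in Naive 3, 4 and 5. Fbn2, a fibrillin of microfibrils, stood at 527, 579 and 494 CPM against 100.5, 75.1 and 89.9 CPM. Both were tight within each set of 3 libraries. Col1a1, the main chain of collagen I, stood at 14220, 11630 and 17060 CPM against 7523, 7579 and 5290 CPM, a gap of -0.62. Col12a1, which links fibrils, was the member wholly above, at 74.5, 70.8 and 101 CPM against 299, 250 and 168 CPM. Loxl2, a collagen cross-linking oxidase, stood at 505, 442 and 472 CPM against 197, 238 and 116 CPM.

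Another list joined matricellular genes, whose products modify cell contact with the matrix, to small proteoglycans. Of its 17 filtered members 5 were higher and none was lower, against 3.39% and 3.29% of all genes. In all 9 lay wholly above and 4 wholly below, with a median difference of 0.43. Postn, periostin, stood at 285, 286 and 179 CPM in Naive 1, 2 and 6 and at 1884, 1286 and 1672 CPM in Naive 3, 4 and 5. Ccn3 stood at 11.1, 20.6 and 16.6 CPM against 182 (Naive 3), 149 (Naive 4) and 205 (Naive 5) CPM. Ccn2, connective tissue growth factor, stood at 4.39, 4.03 and 3.29 CPM against 41.3, 32.5 and 30.2 CPM, and it shares 23.2% of its exonic bases with Gm15270 on the opposite strand. Thbs2 and the small proteoglycan Prelp completed the 5, with gaps of 1.99 and 1.61. The matricellular Ccn1 went the other way, wholly below at 68.5, 79.7 and 77.4 CPM against 42.8, 60.4 and 18.7 CPM. Tnc and Ccn4 overlapped. Small proteoglycans went several ways within the same list: Dcn, decorin, was nearly level at 2227, 2257 and 2212 CPM against 2338, 2268 and 2459 CPM, while Ogn, osteoglycin, lay wholly below at 1714, 1909 and 1751 CPM against 1012, 615 and 695 CPM.

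Matrix proteases showed 2 of 14 filtered members higher and none lower, against 3.39% and 3.29% of all genes. Mmp11, stromelysin-3, stood at 24.2, 21.5 and 22.7 CPM in Naive 1, 2 and 6 and at 83.3, 92.2 and 174 CPM in Naive 3, 4 and 5, and Adamts5, an aggrecanase, at 63.5, 128 and 87.3 CPM against 485, 388 and 313 CPM. In the basement membrane list, 10 of 21 members lay wholly above and 1 wholly below, against 16.7% and 15.7% of all genes, and 2 were higher. Lama4, the laminin chain of vessels and stroma, stood at 92.9, 97.7 and 100.4 CPM against 509, 537 and 280 CPM, with Naive 5 the lowest of the high libraries. Itga8, an integrin chain of contractile mesenchyme, stood at 11.0, 16.5 and 24.4 CPM against 103, 79.9 and 94.5 CPM.

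In the Wnt pathway list 5 genes for secreted regulators, mostly antagonists, were higher, Sfrp1, Sfrp2, Sfrp4, Dkk2 and Dkk3, and so was Rspo3, which potentiates Wnt signals. Sfrp4 stood at 94.5, 126 and 96.0 CPM in Naive 1, 2 and 6 and at 434, 393 and 322 CPM in Naive 3, 4 and 5, and Dkk2 at 16.4, 10.8 and 15.98 CPM against 102, 98.5 and 51.3 CPM. Rspo3 stood at 4.01, 6.38 and 3.37 CPM against 26.0, 21.4 and 25.0 CPM. Axin2, a feedback target of beta-catenin, was lower at 72.0, 54.9 and 59.6 CPM against 18.6, 21.0 and 27.0 CPM. Wnt5b, a ligand, was lower at 8.09, 4.92 and 4.62 CPM against 0.998, 1.96 and 1.26 CPM, while the ligand Wnt5a lay wholly below with a gap of -0.43. In all, 6 of 16 filtered members were higher and 2 lower, against 3.39% and 3.29% of all genes.

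Retinoic acid genes were lower in 4 of 12 filtered members and higher in 1, against 3.29% and 3.39% of all genes. Aldh1a2, which makes retinoic acid in stroma, stood at 1239, 1085 and 918 CPM in Naive 1, 2 and 6 and at 175, 227 and 152 CPM in Naive 3, 4 and 5, and Aldh1a1 at 162, 179 and 144 CPM against 60.6, 56.7 and 60.3 CPM. Cyp26b1, which degrades it, stood at 12.6, 16.1 and 18.3 CPM against 1.496, 1.41 and 1.86 CPM. Crabp1, a binding protein, had 470 counts in Naive 1, 2 and 6 together and 5 in Naive 3, 4 and 5. Dhrs3, which returns retinaldehyde to retinol, was the member that was higher, at 2.00, 0.969 and 3.29 CPM against 11.0, 20.1 and 13.4 CPM.

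Growth factor genes were split. Vegfd and Vegfc, ligands of the lymphatic receptor, were higher, with Vegfd at 18.4, 34.1 and 25.0 CPM in Naive 1, 2 and 6 and at 204, 204 and 222 CPM in Naive 3, 4 and 5. Fgf2 was lower at 354, 420.1 and 364 CPM against 135, 59.0 and 74.3 CPM, and shares 13.2% of its exonic bases with Nudt6 on the opposite strand. Igf1r, the receptor of the lower ligand Igf1, was higher at 47.2, 44.8 and 46.6 CPM against 112, 149 and 152 CPM, and Pappa, which frees that ligand from its binding proteins, at 69.1, 60.0 and 58.4 CPM against 222, 260 (Naive 4) and 174 CPM. Inhbb, an activin subunit, was lower at 356, 398 and 221 CPM against 18.8, 47.1 and 16.5 CPM. Boc, a hedgehog co-receptor, was higher at 0.694, 0.807 and 4.08 CPM against 14.5, 23.7 and 8.62 CPM. Ptn was higher with a gap of 1.02 that fell under the 2-fold limit without Naive 3, and also with DESeq2 size factors or nuclear TMM factors.

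Of 10 filtered genes of the endoplasmic reticulum stress response 2 were lower, Sdf2l1 and Pdia4, and none was higher. In all 7 lay wholly below, against 15.7% of all genes, and none above. The median difference was -1.09, and Pdia4 came inside the 2-fold limit under scaling to total library size. Sdf2l1, a chaperone cofactor, had 231 counts in Naive 1, 2 and 6 and 16 in Naive 3, 4 and 5. Hspa5, the main chaperone of that compartment, stood at 750 (Naive 1), 793 and 334 CPM against 184, 126 and 138 CPM, a gap of -0.86 that did not reach the limit, with Naive 6 nearer to the low libraries. Hsp90b1 showed the same order, at 2171, 2227 and 1116 CPM against 673, 451 and 468 CPM, a gap of -0.73. Ddit3, the stress-induced transcription factor, overlapped at 2.78, 7.10 and 3.37 CPM against 5.98, 12.4 and 7.89 CPM.

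Cell cycle genes were listed by phase. Of 12 filtered genes of the G2 and M phases none was wholly above or below, and the median difference was 0.0041. Mki67 stood at 197, 167 and 186 CPM in Naive 1, 2 and 6 and at 206, 150 (Naive 4) and 133 CPM in Naive 3, 4 and 5, which overlapped. In the G1 and S phases, 1 of 13 filtered genes lay wholly above and 3 wholly below, near the shares of 16.7% and 15.7% over all genes. Clock genes, a list added after the values were seen, had Hlf higher and Per2 and Bhlhe40 lower: Per2 stood at 119, 123 and 118 CPM against 14.4, 26.9 and 23.9 CPM. The core activators Clock and Arntl overlapped.

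**Figure D3:**
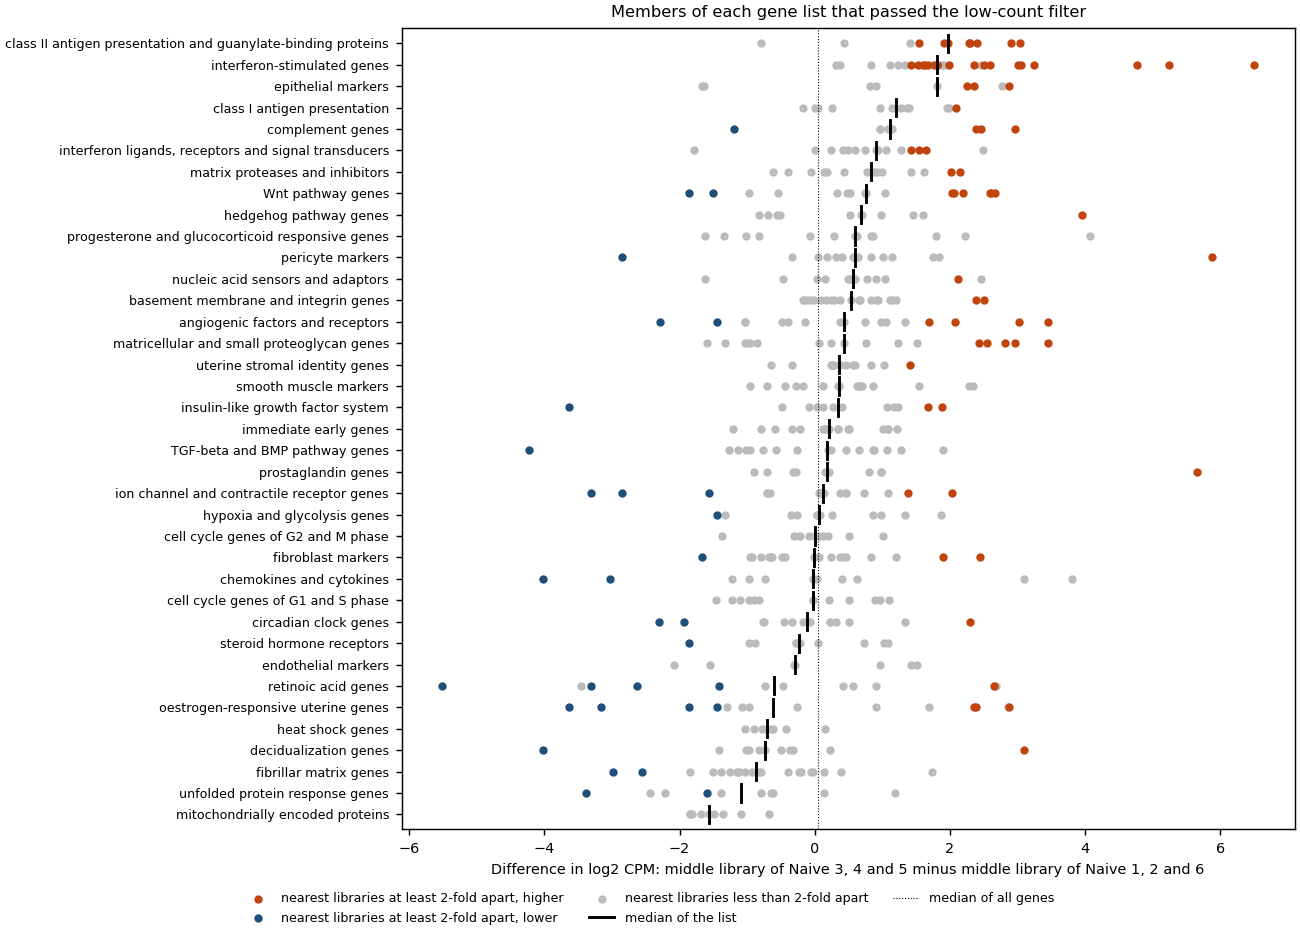
Difference in log2 CPM between the middle libraries of the 2 sets for each member that passed the filter in each gene list of at least 3 such members, with a bar at the list's median and a dotted line at the median of all genes (0.04). List medians run from -1.57 for mitochondrially encoded proteins to 1.97 for class II presentation and guanylate-binding proteins, and orange and blue points are genes at least 2-fold apart.

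Some genes were near silent on one side. At least 20 counts in each library of one set and at most 2 in each of the other held for 38 genes on in Naive 3, 4 and 5, of 26213 with any count in the 6 libraries (0.145%), and for 25 genes on in Naive 1, 2 and 6 (0.0954%). Il33, an alarmin cytokine, had 107, 49 and 43 counts in Naive 3, 4 and 5 and 0 in the other 3. Mmp3, stromelysin-1, had 76, 60 and 130 counts and Serpina3g, a serine protease inhibitor, 51, 159 and 30, each with 0 counts in Naive 1, 2 and 6. Clec1a, a C-type lectin, had 300, 264 and 106 counts against 0. In the other direction Gpr83, an orphan receptor of neuropeptide type, had 304, 299 and 351 counts in Naive 1, 2 and 6 and 1, 0 and 0 in Naive 3, 4 and 5, and Spock3, a proteoglycan, had 164, 148 and 87 against 0. These genes were chosen after their values were seen. Of the 38, 25 reached 20 counts in no Stromal library, whereas 10 of the 25 reached it in all 6.

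The genes 2-fold apart were then placed against the range of the Stromal libraries. The axis used to choose Naive 3, 4 and 5 also set them far from the Stromal libraries. The placement and the correlations below therefore restate that choice and are no separate result. Of the 492 higher genes, 288 (58.5%) had the median of Naive 3, 4 and 5 above the whole Stromal range and the median of Naive 1, 2 and 6 within it. For 86 both medians lay above, and for 67 both lay within. Of the 478 lower genes, 314 (65.7%) had only Naive 3, 4 and 5 below the range, and for 54 both medians lay below. Over all 14523 genes the same 2 patterns held for 13.6% and 14.1%, which is no baseline for genes chosen to be 2-fold apart. Leaving out Stromal 6 gave 271 and 297 genes. Spearman's correlation across genes, which are not independent replicates, ran from 0.872 to 0.921 between Naive 1, 2 and 6 and the Stromal libraries and from 0.797 to 0.837 between Naive 3, 4 and 5 and the Stromal libraries. Both ranges were the same to 3 digits without Stromal 6. Within Naive 3, 4 and 5 it ran from 0.911 to 0.929.

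**Figure D4:**
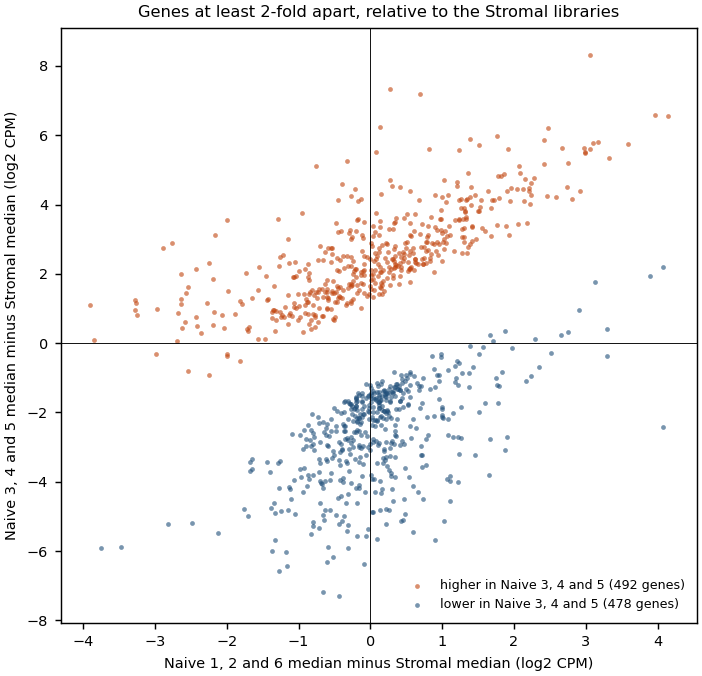
For each gene at least 2-fold apart, the median log2 CPM of Naive 1, 2 and 6 (horizontal axis) and of Naive 3, 4 and 5 (vertical axis), each minus the Stromal median. Points spread further along the vertical than the horizontal axis, and 288 of 492 higher and 314 of 478 lower genes had only Naive 3, 4 and 5 outside the Stromal range. The choice of libraries, made on an axis over all 12, goes into this spread.

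Markers of the sorted cells were present in all 6 libraries. Pdgfrb, whose regulatory sequence drives the reporter, overlapped at 89.5, 78.6 and 139 CPM in Naive 1, 2 and 6 and 87.5, 171 and 118 CPM in Naive 3, 4 and 5. Summed over 20 pericyte markers, Naive 1, 2 and 6 held 1715 to 2272 CPM and Naive 3, 4 and 5 held 2244 to 2648 CPM, against 564 to 1216 CPM in Stromal libraries. Of 14 filtered pericyte markers 6 lay wholly above and 1 wholly below, with 1 higher, Steap4, and 1 lower, Trpc6. The sum over 19 smooth muscle markers was 2691 to 2956 CPM in Naive 1, 2 and 6 against 2122 to 2457 CPM in Naive 3, 4 and 5, but without Cald1, an abundant gene of many mesenchymal cells, it was 735 to 793 CPM against 1068 to 1173 CPM, the other way round. Of 17 filtered smooth muscle markers 6 lay wholly above, 1 wholly below, and none was 2-fold apart. Over all genes 16.7% lay wholly above and 15.7% wholly below, and 3.39% were higher and 3.29% lower. The sum over 19 fibroblast markers was 26510 to 31410 CPM against 15480 to 18790 CPM, and without the collagen I genes Col1a1 and Col1a2 it was 6298 to 6618 CPM against 5739 to 6490.0 CPM, which overlapped. Of these 19 markers 7 lay wholly above and 8 wholly below, with 2 higher, 1 lower and a median difference of -0.0111. In bulk samples fewer cells of a type and less RNA per cell cannot be told apart. Markers of other cell types were low. The sum over 19 epithelial markers was 8.79 to 29.6 CPM in Naive 1, 2 and 6 and 32.7 to 74.0 CPM in Naive 3, 4 and 5. Of 9 filtered epithelial markers 3 were higher, Cdh1, Ltf and Sprr2f, and none was lower, with a median difference of 1.81. The other filtered members overlapped, among them Ehf and Pax8, highest in Naive 4, and Krt7 and Krt19, with differences of -1.67 and -1.64. Krt8 was at most 0.663 CPM in Naive 3, 4 and 5 and at most 1.45 CPM in Naive 1, 2 and 6. Foxa2 and Cldn3 were at 0 in all 6 Naive libraries. The sum over 19 leukocyte markers was 4.84 to 7.09 CPM against 7.10 to 18.5 CPM, with Cd68 the larger part in every Naive library. Cd68 alone stood at 4.24, 3.63 and 3.91 CPM against 6.13, 16.9 and 5.31 CPM, and Itgam, the other filtered member, overlapped. Among the 19, 9 were at 0 in all 6 libraries, including Tyrobp, C1qa and Cd3e. Ptprc, the pan-leukocyte marker, was at most 0.199 CPM in Naive 3, 4 and 5 and at most 1.42 CPM in Naive 1, 2 and 6. Endothelial markers overlapped, at 42.1 to 60.0 CPM against 51.3 to 67.8 CPM. The part of these other cells in the gene differences was not tested.

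Total counts overlapped, at 13680327 to 14950639 in Naive 1, 2 and 6 and 12631266 to 14172659 in Naive 3, 4 and 5, while other library measures moved with the split. Mitochondrial genes took 45.3% to 49.0% of counts in Naive 1, 2 and 6 and 32.4% to 40.5% in Naive 3, 4 and 5. Of 9 filtered mitochondrial protein genes 8 lay wholly below, against 15.7% of all genes. Genes with at least 1 count numbered 19613 to 19840 against 20316 to 20915, and the 100 most abundant nuclear genes took 29.9% to 30.5% of nuclear counts against 24.7% to 26.8%. TMM factors were 0.823 to 0.868 against 0.990 to 1.20. The mitochondrial share, the number of genes and the TMM factors follow the same split of libraries as the gene differences above. Their part in those differences was not tested. Predicted genes made up 17.5% of the higher and 29.3% of the lower genes, against 20.6% of all genes.

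**Figure D5:**
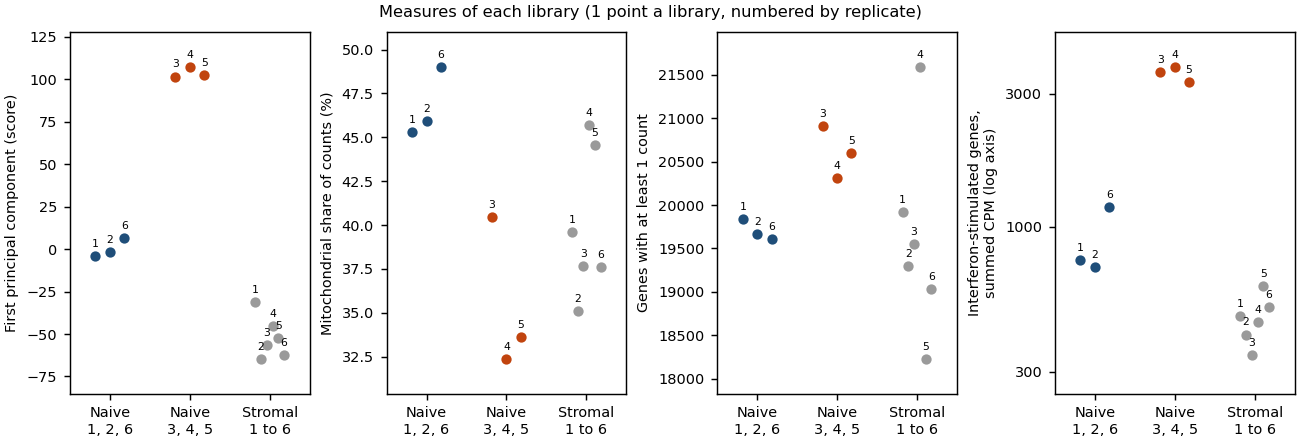
Score on the first principal component, mitochondrial share of counts, genes with at least 1 count, and summed CPM of interferon-stimulated genes (log axis), 1 point per library numbered by replicate. Naive 3, 4 and 5 stand apart from Naive 1, 2 and 6 in each panel, which the choice of libraries fixes for the first, with mitochondrial shares of 32.4% to 40.5% against 45.3% to 49.0%.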

How the data were processed

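The authors deposited raw read counts per gene for 12 libraries sequenced over 4 lanes. Per the file headers, featureCounts 1.6.4 assigned read pairs to exons by gene (Ensembl release 84, GRCm38), with a mapping quality of at least 10 and without regard to strand. Cutadapt and SAMtools are named per the submitters' processing notes, and no source used here names the aligner. The single files and the deposited table hold the same counts for 12 of 12 libraries.

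Genes were filtered with filterByExpr on the 2 labelled groups, and CPM was computed with TMM factors over all 12 libraries and a prior count of 2 on the log2 scale (edgeR 4.0.16, R 4.3.3; pandas 2.3.3, numpy 2.4.6 and Python 3.11.15 for the rest). The computation of gaps was tested on simulated data. Since the libraries were chosen on these values, no test was run between them, and no label ties a library to an animal, so the spread between them may be partly technical. The libraries and the 40 gene lists were chosen with earlier results of these data known, and a clock list was added after the values were seen. Of the list members, 674 matched a gene and 1 did not.

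By rule, the text names up to 3 members of each list with the largest difference among those higher or lower, or else the most abundant member. It also names the 15 widest gaps in each direction among genes with a mean log2 CPM of at least 3 over the Naive libraries, without predicted genes, and Pdgfrb. Some results under this rule are not reported here. Other genes, such as Ifit1, Postn, Oas2 and the near-silent genes, were chosen after their values were seen. Limits from a count of 0 allow 3 counts and cover counting error only. Alternatives were total library size, DESeq2 1.42.0 size factors, nuclear TMM factors, another prior count, other filters, other fold limits and leaving out each library.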

Additional observations from a re-analysis of the deposited data

Results flagged for a closer look

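A library standing far from the other 5 of its group was looked for in 220 sets of 6 CPM values, and 9 were found, 1 among Naive and 8 among Stromal libraries. Chance alone gives about 1 in 20 such sets. Many of these genes were named because their Naive values split 3 against 3, which leaves little room for a lone Naive library. The counts of 1 and 8 are therefore not comparable. The Naive case was Cd68, a lysosomal marker of macrophages, at 16.89 CPM in Naive 4. Stromal 1 stood apart for Lgr6 (29.5 CPM), P2ry14 (516.9 CPM), Pappa (238.0 CPM) and Scara5 (30.76 CPM). It also did for Ifi207 (2.711 CPM) and Ptn (2.08 CPM). Stromal 5 stood apart for Ano5 at 2.394 CPM and for Crabp1 at 2.829 CPM.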

How the results depend on the processing

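Against 492 higher and 478 lower genes, scaling to total library size gave 885 and 290. Dropping the low-count filter gave 808 and 579, a 1.5-fold limit gave 915 and 815, and a 4-fold limit gave 99 and 161. Leaving out 1 library at a time gave 674 to 835 higher and 574 to 702 lower genes. Fewer libraries to separate can only keep or widen a gap at the same scaling, so a rise is built into the rule. The genes kept by the filter also differed, and their part in the rise was not tested. Leaving out Stromal 6 or Stromal 5 gave 271 to 275 higher genes with only Naive 3, 4 and 5 above the Stromal range and 296 to 297 lower genes with only these below it. Of 970 values of 97 named genes over the alternatives, 877 stayed within the spread between libraries, 93 did not and 0 changed sign. Of 85 named genes at least 2-fold apart, 6 came under that limit in some alternative: Bhlhe40, Lif, Pdia4, Smoc2 and Vegfa under total library size, and Ptn as given above. List medians changed sign in 25 of 370 values, among them those of fibroblast and endothelial markers and of steroid hormone receptors under total library size. No paired analysis was possible because no label ties a library to an animal. Replicate numbers shared by Naive and Stromal libraries had correlations of -0.139 to 0.0892 over 6 pairs, and 2 of 6 Naive libraries correlated best with their own number.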
